A study of Mus musculus with 17 samples.

Results

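The genes described here were 8 interferon-inducible GTPases, the guanylate-binding proteins Gbp2, Gbp3, Gbp5, Gbp7 and Gbp9 and the immunity-related GTPases (IRGs) Irgm1, Irgm2 and Igtp, chosen by family and by name among 31091 genes in the count table. All 8 passed the filter on low counts in every comparison, with 44 to 1207 reads per gene and sample. RNA was measured in 17 samples of type 1 and type 2 conventional dendritic cells (cDC1s and cDC2s) after 6 h of culture in the presence of medium from TC-1 tumor cells. TC-1 is a C57BL/6 lung epithelial tumor line made with HPV16 oncogenes and H-ras. Medium came from parental cells that stayed alive (WT), from the engineered subline TC-1-iBimS, in which cumate induces BimS and apoptosis, or from TC-1-iRIPK3, in which cumate induces oligomerized RIPK3 and necroptosis. All 3 lines had received cumate, and the medium was added without centrifugation, so that it carried both soluble material and cell debris. Each of the 6 groups had 3 samples, except cDC2s with RIPK3 medium, which had 2. The dendritic cells came from spleens of 8-week-old female C57BL/6JRj mice bearing B16 tumors that secrete FLT3 ligand, with at least 2 mice pooled, were enriched on CD11c and kept with GM-CSF, and the cDC1s (XCR1+ CD8α+) and cDC2s (SIRPα+ CD11b+) were sorted after the culture. The labels give no culture or animal for a replicate, so the p-values measure only the spread between these samples, which may be technical.

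GBPs and IRGs are GTPases of cell-autonomous immunity that interferons induce in most nucleated cells. GBPs assemble on bacteria and on the membranes of vacuoles that hold microbes, help to open them, and so expose microbial contents to inflammasomes. The IRGs fall into effectors that coat pathogen vacuoles and regulators, among them Irgm1, Irgm2 and Igtp (also called Irgm3), which sit on the cell's own membranes and keep the effectors inactive there. Type I interferon acts on such genes through a complex that includes STAT2 and IRF9 and binds interferon-stimulated response elements (ISREs), and interferon-γ through gamma-activated sites (GAS) and through IRF1.

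In the mouse genome (GRCm39, GENCODE M39), 4 of the GBP genes lie on the plus strand of chromosome 3, with Gbp2b between Gbp3 and Gbp2. They are Gbp5 (chr3:142199739-142228105), Gbp7 (chr3:142236044-142255910), Gbp3 (chr3:142265731-142278979) and Gbp2 (chr3:142326349-142343779). Gbp9 lies on the minus strand of chromosome 5 (chr5:105224332-105287452). Irgm1 (chr11:48752795-48763164, minus strand) and the neighbours Igtp (chr11:58089840-58098417) and Irgm2 (chr11:58090444-58113615), both on the plus strand, lie on chromosome 11. Igtp and Irgm2 overlap in 162 exon bases, 3.55% and 4.33% of their exon lengths, and 5.62% of the 54-base words of Igtp transcripts also occur in Irgm2 transcripts, so a small share of reads could belong to either. For Gbp7, 11.2% of such words are shared, 9.36% with the gene model Gm43802, which overlaps it. The shared part was 4.17% for Gbp9 and 0.21% to 2.4% for Gbp2, Gbp3, Gbp5 and Irgm1.

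The sequences before the start sites are shown for 6 of the genes because all 8 genes were lower with RIPK3 than with WT medium, and they show where letters of the ISRE and GAS motifs stand. RefSeq promoter entries of 300 bases were present for 7 of the 8 genes, with 2 entries for Gbp3. The table is built on GRCm38.p6, and each entry was placed on GRCm39 by an exact match. The 120 bases before the start (180 for Gbp5) are printed 5′ to 3′ on the gene's strand, with capitals for GAAANNGAAA, or TTTCNNTTTC on the other strand, the core of an ISRE, and for TTCNNNGAA, the GAS. The windows lie at chr3:142326304-142326423, chr3:142202515-142202694 and chr3:142235977-142236096 on the plus strand, at chr11:48762248-48762367 on the minus strand, and at chr11:58105683-58105802 and chr11:58090262-58090381 on the plus strand. The starts are those of RefSeq. The windows of Gbp5, Irgm1, Irgm2 and Igtp therefore lie within the GENCODE spans given above, and those of Gbp2 and Gbp7 partly do.
Gbp2: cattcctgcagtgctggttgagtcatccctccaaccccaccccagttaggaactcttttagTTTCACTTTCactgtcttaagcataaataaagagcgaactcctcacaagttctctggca
Gbp5: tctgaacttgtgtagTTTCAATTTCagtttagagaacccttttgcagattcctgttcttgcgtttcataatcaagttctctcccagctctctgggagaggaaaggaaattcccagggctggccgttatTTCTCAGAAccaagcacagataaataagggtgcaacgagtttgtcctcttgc
Gbp7: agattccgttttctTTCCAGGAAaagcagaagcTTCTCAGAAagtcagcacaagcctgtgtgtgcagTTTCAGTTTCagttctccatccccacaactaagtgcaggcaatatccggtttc
Irgm1: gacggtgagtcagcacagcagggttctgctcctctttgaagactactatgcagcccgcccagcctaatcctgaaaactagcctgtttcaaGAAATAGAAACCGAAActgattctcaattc
Irgm2: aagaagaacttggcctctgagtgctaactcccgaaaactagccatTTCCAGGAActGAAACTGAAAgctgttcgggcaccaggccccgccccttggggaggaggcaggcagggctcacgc
Igtp: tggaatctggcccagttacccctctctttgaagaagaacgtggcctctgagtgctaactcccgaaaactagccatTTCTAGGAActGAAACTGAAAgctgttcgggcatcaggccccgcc

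The ISRE core was found in 7 of the 8 entries and in 3.44% of all 32851 mouse promoter entries of the same length. The GAS letters were found in 4 of the 8 entries, those of Gbp5, Gbp7, Irgm2 and Igtp, and in 8.3% of all entries. Both motifs together occurred in these 4 of 8 entries and in 0.454% of all. In Gbp2 and Gbp7 the ISRE core began 59 and 53 bases upstream of the start, in Gbp3 45 and 39 bases upstream in 2 overlapping matches, in Irgm1 30 and 24 bases upstream, again overlapping, and in Gbp5 165 bases upstream. In Irgm2 and Igtp the GAS letters ended just before the ISRE core, which began 64 and 34 bases upstream. Both entries share an identical run of 61 bases, which begins 41 bases upstream in Irgm2 and 11 in Igtp, after both motifs. The second Gbp3 entry held neither motif. No motif match overlapped one of the other kind. A match describes these letters only and shows no binding.

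**Figure D1:**
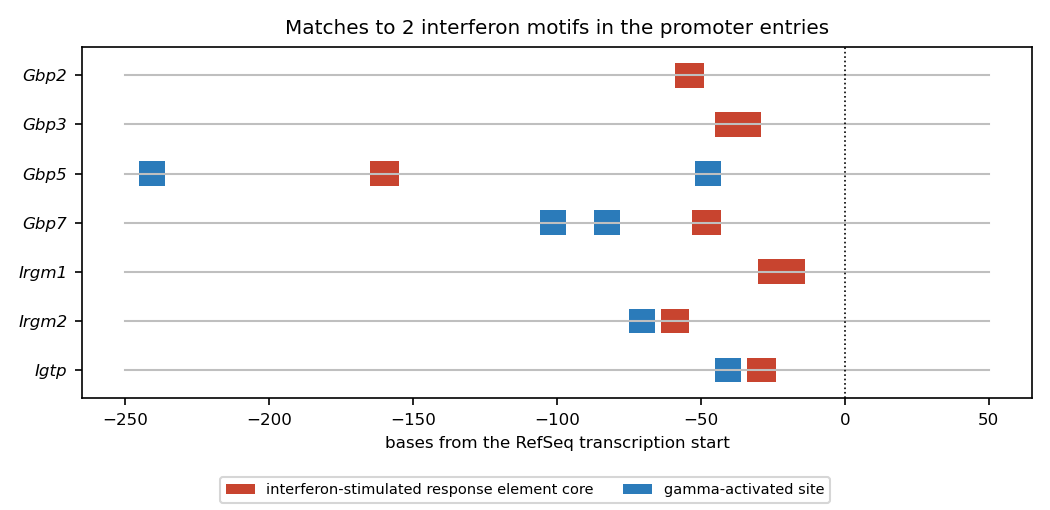
Positions of ISRE core matches (red) and GAS matches (blue) in the promoter entries of 7 GTPase genes, in bases from the RefSeq transcription start (dotted line), with the first of the 2 Gbp3 entries shown. An ISRE core lay within 65 bases of the start in every gene shown but Gbp5, where it lay 165 bases upstream.

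The libraries held 16095159 to 21645289 reads in genes. The 8 markers of cDC1s summed to 1368 to 1684 CPM (gene counts scaled to the library size) in cDC1s and to 77.2 to 104 CPM in cDC2s, and the 7 markers of cDC2s to 281 to 372 CPM in cDC2s and to at most 4.1 CPM in cDC1s, so both sorted populations carried the markers of their label. The 10 markers of T and NK cells, which make interferon-γ, summed to 0.408 to 2.97 CPM. Of them Ncr1, Klrb1c, Prf1 and Nkg7 had at most 1 read in any sample, while 5 of the 10 passed the filter on low counts in cDC1s and 6 in cDC2s. In cDC2s with RIPK3 medium the B cell markers summed to 45.5 to 46.5 CPM, nearly all of it Ighm, against 34.8 to 41.1 CPM with WT medium and 27.0 to 33.0 CPM with BimS medium. In cDC1s the 5 markers of plasmacytoid cells summed to 54.7 to 57.2 CPM with BimS medium, against 60.9 to 66.4 CPM with WT medium. With RIPK3 medium the cDC1 markers summed to 1368 to 1430 CPM in cDC1s, against 1508 to 1684 CPM with WT medium. This lower sum was not shared by all 8 genes, of which 3 were called lower and 3 higher. Their log2 fold changes ran from -0.84 to 0.57, with a median of 0.10. The cDC2 markers summed to 281 to 320 CPM in cDC2s with RIPK3 medium, against 325 to 372 CPM with WT medium. Of these 7 genes, 3 were called lower and 1 higher, with a median of -0.21. In cDC2s the T and NK cell markers were at 1.84 to 2.13 CPM with BimS and 2.74 to 2.97 CPM with WT medium, and the 5 neutrophil markers at 0.061 to 0.355 CPM and 0.514 to 2.25 CPM. In cDC2s with RIPK3 medium the plasmacytoid cell markers summed to 172 CPM in both samples, against 192 to 215 CPM with WT medium, nearly all of it Tcf4 and Bst2, and the 7 epithelial and tumor markers to 17.8 to 24.99 CPM, against 30.4 to 38.9 CPM, nearly all of it Cdh1. The part of these shifts in the results below was not tested. In bulk RNA, fewer cells of a type and less RNA per cell cannot be told apart.

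Per kilobase of exon, the scale on which levels of different genes can be compared, Irgm1 was the highest of the 8 genes in both cell types with WT medium. In cDC1s its level was 7.91 ± 0.69 CPM per kb (SD, n = 3), followed by Gbp5 at 7.13 ± 0.76, Irgm2 at 5.79 ± 0.34, Gbp9 at 5.37 ± 0.27, Gbp2 at 5.26 ± 0.68, Gbp3 at 2.46 ± 0.36, Igtp at 1.56 ± 0.061 and Gbp7 at 1.28 ± 0.16. Irgm1 and Gbp5 overlapped in their sample ranges, as did Irgm2 with Gbp9 and Gbp9 with Gbp2, while the other neighbours in this order did not. In cDC2s Irgm1 stood at 9.83 ± 0.14 CPM per kb, followed by Gbp2 at 8.97 ± 0.45, Irgm2 at 6.38 ± 0.40, Gbp5 at 5.36 ± 0.85, Gbp7 at 3.74 ± 0.68, Gbp3 at 2.85 ± 0.17, Igtp at 2.39 ± 0.079 and Gbp9 at 1.87 ± 0.35. Only Irgm2 and Gbp5 overlapped with their neighbour there. Gbp9 thus ranked higher in cDC1s than in cDC2s, where it was last, and Gbp7 ranked last in cDC1s. All levels below are CPM of single genes, scaled by TMM over all samples, and fold changes are on the log2 scale with their standard error (SE).

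All 8 GTPase genes were lower with medium of necroptotic cells than with medium of live cells, in cDC1s and in cDC2s. In cDC1s, 8 of 8 were called lower with RIPK3 medium, against 8.19% of all genes tested, with log2 fold changes from -1.49 (Gbp7) to -0.52 (Gbp9) and a median of -0.93. In cDC2s, 8 of 8 were called lower, against 3.28% of all genes, from -1.50 (Irgm1) to -0.70 (Gbp9) with a median of -1.04. The median over all genes was -0.01 in cDC1s and -0.02 in cDC2s. Leaving out any 1 of the 9 cDC1 samples kept the cDC1 count at 8, and leaving out either RIPK3 sample took the cDC2 count to 6, where the lone RIPK3 sample was assumed to vary like the other groups.

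With medium of apoptotic cells fewer of the genes passed the test. In cDC1s, 2 of 8 were called lower than with WT medium, Gbp5 and Igtp, against 5.89% of all genes, and the median log2 fold change of the 8 was -0.29. In cDC2s, 3 of 8 were called lower, the IRGs Irgm1, Irgm2 and Igtp, against 3.21% of all genes, with a median of -0.28. None was called higher in either cell type. With the replicate number as a block, 5 of 8 were called in each cell type, where the block called 17.9% of all genes in cDC1s and 21.3% in cDC2s in either direction. Without WT replicate 1 or 3 the cDC1 count was 1, and without RIPK3 replicate 2, which shares the estimate of spread, it was 4. The comparisons of BimS and of RIPK3 medium with WT share the WT samples.

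**Figure D2:**
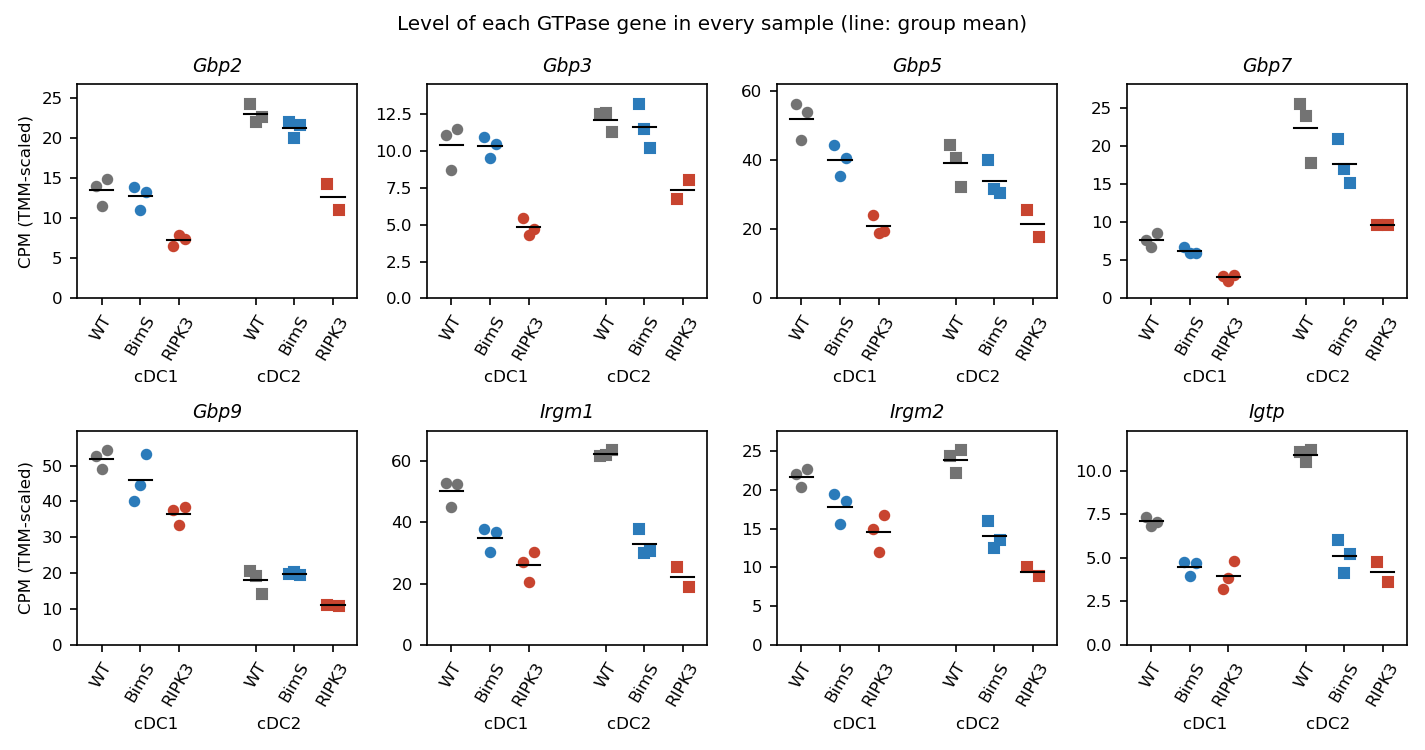
TMM-scaled CPM of the 8 GTPase genes in every sample (circles: cDC1, squares: cDC2; grey: WT, blue: BimS, red: RIPK3 medium), with lines at group means and axes from 0. With RIPK3 medium every sample of every gene lay below all WT samples of its cell type.

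Among the GBPs, Gbp2 encodes a lipid-anchored GBP that gathers on vacuoles and bacteria. In cDC1s its level was 14.0, 11.5 and 14.9 CPM with WT medium, 13.8, 11.0 and 13.3 CPM with BimS medium and 6.55, 7.90 and 7.43 CPM with RIPK3 medium. In cDC2s the level was 24.3, 22.03 and 22.6 CPM with WT, 22.03, 20.03 and 21.6 CPM with BimS and 14.3 and 11.0 CPM with RIPK3 medium. The RIPK3 samples were the lowest in both cell types, the WT and BimS samples overlapped in cDC1s, and in cDC2s the highest BimS and the lowest WT sample both rounded to 22.03 CPM. Against WT, RIPK3 medium gave a log2 fold change of -0.89 ± 0.12 in cDC1s (adjusted p = 2.84e-07) and -0.86 ± 0.13 in cDC2s (adjusted p = 0.000144). BimS medium gave -0.09 in cDC1s (95% interval -0.31 to 0.13, adjusted p = 0.73) and -0.12 in cDC2s (-0.34 to 0.11, adjusted p = 0.65).

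Gbp3, from the same cluster on chromosome 3, had its lowest levels with RIPK3 medium. The cDC1 samples were at 11.1, 8.70 and 11.5 CPM with WT, 11.0, 9.52 and 10.5 CPM with BimS and 5.47, 4.31 and 4.72 CPM with RIPK3 medium. The cDC2 samples were at 12.5, 12.6 and 11.3 CPM with WT, 13.2, 11.5 and 10.2 CPM with BimS and 6.74 and 8.04 CPM with RIPK3 medium. WT and BimS samples overlapped in both cell types, and every RIPK3 sample lay below them. The log2 fold change with RIPK3 medium was -1.12 ± 0.13 in cDC1s (adjusted p = 2.7e-08) and -0.71 ± 0.15 in cDC2s (adjusted p = 0.00526), and the cDC2 call was lost without RIPK3 replicate 1, at -0.59. With BimS medium the interval was -0.26 to 0.22 in cDC1s and -0.33 to 0.21 in cDC2s.

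Gbp5, which encodes a GBP tied to inflammasome assembly, was lowered by RIPK3 medium in both cell types and by BimS medium in cDC1s. In cDC1s it stood at 56.2, 45.7 and 53.998 CPM with WT, 44.2, 35.3 and 40.6 CPM with BimS and 24.0, 18.8 and 19.6 CPM with RIPK3 medium, so that the 3 groups did not overlap. In cDC2s it stood at 44.3, 40.7 and 32.2 CPM with WT, 39.9, 31.5 and 30.4 CPM with BimS and 25.6 and 17.7 CPM with RIPK3 medium, where WT and BimS overlapped. RIPK3 medium gave -1.33 ± 0.11 in cDC1s (adjusted p = 1.77e-07) and -0.86 ± 0.18 in cDC2s (adjusted p = 0.011). The cDC2 call was lost without RIPK3 replicate 2, at -0.60. With BimS medium Gbp5 fell in cDC1s by 0.38 on the log2 scale (SE 0.10, adjusted p = 0.0185). This call was lost without WT replicate 1 (-0.32), WT replicate 3 (-0.35), BimS replicate 3 (-0.39) or RIPK3 replicate 3 (-0.38), and in a fit of all 17 samples. In cDC2s the BimS change was -0.21 (-0.54 to 0.13, adjusted p = 0.557), and it passed the threshold with the replicate block, also at -0.21.

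Gbp7, tied to oxidative defence of vacuoles, had the largest estimate of the 8 genes with RIPK3 medium in cDC1s. Its level there was 7.62, 6.71 and 8.62 CPM with WT, 6.79, 5.94 and 5.97 CPM with BimS and 2.92, 2.23 and 3.11 CPM with RIPK3 medium. In cDC2s it was 25.5, 23.9 and 17.8 CPM with WT, 20.9, 17.0 and 15.1 CPM with BimS and 9.67 CPM in both RIPK3 samples. WT and BimS overlapped in both cell types, and the RIPK3 samples were lowest. RIPK3 medium gave -1.49 ± 0.16 in cDC1s (adjusted p = 2.03e-09) and -1.21 ± 0.17 in cDC2s (adjusted p = 6.61e-05). For BimS medium the values were -0.30 (-0.57 to -0.02, adjusted p = 0.167) and -0.35 (-0.63 to -0.06, adjusted p = 0.17), of which the cDC2 value passed the threshold with the replicate block, at -0.34, and without WT replicate 3, at -0.49.

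Gbp9 had the smallest estimate with RIPK3 medium in both cell types, close to that of Gbp3 in cDC2s. In cDC1s the samples were at 52.5, 49.1 and 54.2 CPM with WT, 40.2, 44.5 and 53.2 CPM with BimS and 37.6, 33.4 and 38.5 CPM with RIPK3 medium. In cDC2s they were at 20.7, 19.2 and 14.3 CPM with WT, 19.7, 20.4 and 19.5 CPM with BimS and 11.2 and 10.95 CPM with RIPK3 medium. BimS samples overlapped with WT samples in both cell types, and WT replicate 3 was the lowest of the cDC2 samples outside the RIPK3 group. RIPK3 medium gave -0.52 ± 0.08 in cDC1s (adjusted p = 8.11e-05) and -0.70 ± 0.15 in cDC2s (adjusted p = 0.00411), and the cDC2 call was lost without RIPK3 replicate 1 (-0.72) or 2 (-0.68). The BimS value was -0.18 in cDC1s (-0.35 to -0.01, adjusted p = 0.196), past the threshold at -0.18 with the replicate block and at -0.30 without BimS replicate 3. In cDC2s it was 0.14 (-0.12 to 0.40, adjusted p = 0.635).

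Of the IRG regulators, Irgm1 is needed for handling of mycobacteria and for restraint of interferon responses in macrophages. In cDC1s it was at 52.9, 45.2 and 52.7 CPM with WT, 37.8, 30.2 and 37.0 CPM with BimS and 27.1, 20.5 and 30.5 CPM with RIPK3 medium. In cDC2s it was at 61.9, 62.0 and 63.5 CPM with WT, 37.9, 30.2 and 30.6 CPM with BimS and 25.4 and 18.9 CPM with RIPK3 medium. Both BimS and RIPK3 samples lay below all WT samples in each cell type, and BimS and RIPK3 samples overlapped in cDC1s and not in cDC2s. RIPK3 medium gave -0.96 ± 0.15 in cDC1s (adjusted p = 0.00277) and -1.50 ± 0.13 in cDC2s (adjusted p = 2.11e-07). With BimS medium Irgm1 fell in cDC2s by 0.93 on the log2 scale (SE 0.11, adjusted p = 1.1e-05). In cDC1s the BimS change was -0.52 (-0.86 to -0.19, adjusted p = 0.0549), just short of the threshold, which it passed with DESeq2, filterByExpr, limma on log2 CPM, the replicate block and the fit of all 17 samples, at -0.52 in each, with limma on log2(count + 1), at -0.56, and without a filter or RIPK3 replicate 2 or 3, at -0.53 in each.

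Irgm2, a regulator on the Golgi apparatus, was at 22.01, 20.3 and 22.7 CPM in cDC1s with WT, 19.4, 15.6 and 18.5 CPM with BimS and 15.0, 11.9 and 16.8 CPM with RIPK3 medium. The cDC2 samples stood at 24.4, 22.2 and 25.1 CPM with WT, 16.0, 12.5 and 13.5 CPM with BimS and 9.99 and 8.91 CPM with RIPK3 medium. WT samples were highest in both cell types, and BimS and RIPK3 samples overlapped in cDC1s and not in cDC2s. The log2 fold change with RIPK3 medium was -0.59 ± 0.10 in cDC1s (adjusted p = 9.24e-05) and -1.34 ± 0.14 in cDC2s (adjusted p = 1.44e-06). With BimS medium it was -0.78 ± 0.11 in cDC2s (adjusted p = 0.000134). In cDC1s the BimS value was -0.29 (-0.49 to -0.08, adjusted p = 0.0607), and it passed the threshold with the replicate block (-0.28), without a filter (-0.29), without BimS replicate 1 (-0.36) and without RIPK3 replicate 2 or 3 (both -0.29).

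Igtp, a regulator on the endoplasmic reticulum and lipid droplets, was called lower with BimS medium in both cell types. In cDC1s it was at 7.37, 6.81 and 7.08 CPM with WT, 4.75, 3.96 and 4.69 CPM with BimS and 3.22, 3.85 and 4.84 CPM with RIPK3 medium. In cDC2s it was at 11.1, 10.5 and 11.2 CPM with WT, 6.02, 4.11 and 5.21 CPM with BimS and 4.77 and 3.61 CPM with RIPK3 medium. WT samples stood above all others, and BimS and RIPK3 samples overlapped in both cell types. BimS medium gave -0.67 ± 0.15 in cDC1s (adjusted p = 0.001) and -1.10 ± 0.15 in cDC2s (adjusted p = 8.22e-05). RIPK3 medium gave -0.85 ± 0.15 in cDC1s (adjusted p = 4.69e-05) and -1.38 ± 0.18 in cDC2s (adjusted p = 3.47e-05).

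**Figure D3:**
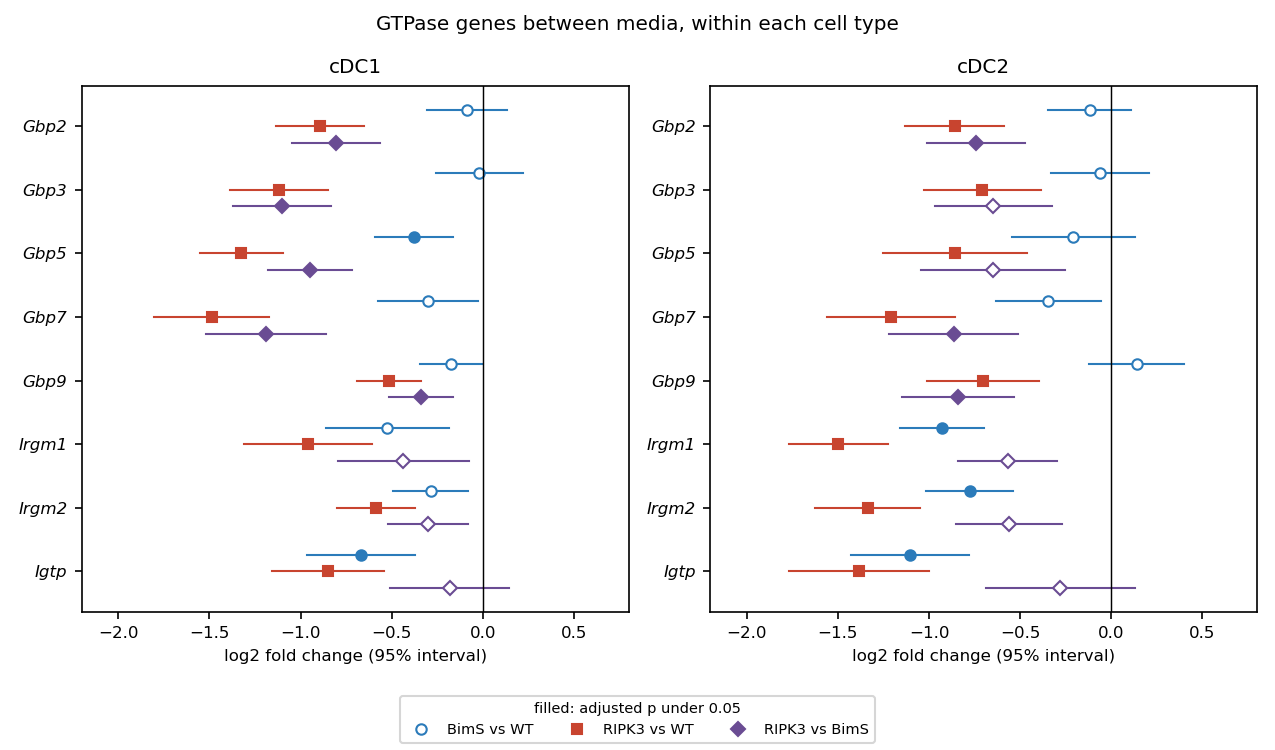
Log2 fold changes of the 8 GTPase genes between media in cDC1s and cDC2s, with 95% intervals, where filled symbols mark an adjusted p under 0.05 (BimS against WT blue, RIPK3 against WT red, RIPK3 against BimS purple). With BimS medium the 5 GBPs ran from -0.38 to -0.02 in cDC1s, where Gbp5 was called, and from -0.35 to 0.14 in cDC2s, and the 3 IRGs ran from -0.67 to -0.29 and from -1.10 to -0.78, a difference between the families that was not tested.

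When both kinds of cell death were compared directly, the genes called by edgeR with the filter used here, all samples of the cell type and no replicate block were GBPs. In cDC1s, 5 of 8 genes were called lower with RIPK3 than with BimS medium, against 2.21% of all genes, and these were the 5 GBPs. Gbp7 changed by -1.19 ± 0.16 (adjusted p = 6.67e-06), Gbp3 by -1.10 ± 0.13 (adjusted p = 1.06e-06), Gbp5 by -0.95 ± 0.11 (adjusted p = 0.000104), Gbp2 by -0.81 ± 0.12 (adjusted p = 2.97e-05) and Gbp9 by -0.34 ± 0.08 (adjusted p = 0.0228). Gbp9 lost its call without BimS replicate 3 (-0.22), RIPK3 replicate 1 (-0.36) or RIPK3 replicate 2 (-0.28), and in the fit of all 17 samples. For the IRGs the values were -0.44 for Irgm1 (-0.79 to -0.08, adjusted p = 0.218), -0.30 for Irgm2 (-0.52 to -0.08, adjusted p = 0.124) and -0.18 for Igtp (-0.51 to 0.15, adjusted p = 0.679). Irgm1 and Irgm2 passed the threshold with the replicate block, at -0.44 and -0.30, where the block called 8.87% of all genes in either direction, and without a filter, at -0.43 and -0.30. Irgm1 also passed it with DESeq2 (-0.43) and limma on log2(count + 1) (-0.53). Irgm2 also passed it without BimS replicate 2 (-0.39) or RIPK3 replicate 3 (-0.41).

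In cDC2s, 3 of 8 genes were called lower with RIPK3 than with BimS medium, against 0.218% of all genes. They were Gbp9, at -0.84 ± 0.15 (adjusted p = 0.0107), Gbp7, at -0.87 ± 0.17 (adjusted p = 0.0238), and Gbp2, at -0.74 ± 0.13 (adjusted p = 0.0107). The other 5 were lower by estimate but did not pass, with Gbp3 and Gbp5 at -0.65 (adjusted p = 0.0759 and 0.241), Irgm1 at -0.57 (0.063), Irgm2 at -0.56 (0.0947) and Igtp at -0.28 (-0.69 to 0.13, adjusted p = 0.729). This count depended on single libraries. It was 0 without BimS replicate 1 or RIPK3 replicate 2, 1 without BimS replicate 2 or RIPK3 replicate 1, 2 without WT replicate 2, 4 without WT replicate 1 and 6 without WT replicate 3. With the replicate block it was 7, adding Gbp3 (-0.71), Gbp5 (-0.76), Irgm1 (-0.59) and Irgm2 (-0.55), where the block called 14.3% of all genes in either direction. Whether the GBPs as a family and the IRGs as a family differed in this comparison was not tested.

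With WT medium all 8 genes were expressed in both cell types, at levels that differed for 6 of them. The genes higher in cDC1s than in cDC2s were 2 of 8, close to the 22.5% of all genes, with Gbp9 at a log2 difference of 1.52 ± 0.11 (adjusted p = 1.06e-12) and Gbp5 at 0.40 ± 0.15 (adjusted p = 0.0404). The genes lower in cDC1s were 4 of 8, against 23.7% of all genes, with Gbp7 at -1.56 ± 0.14 (adjusted p = 7.15e-11), Gbp2 at -0.78 ± 0.11 (adjusted p = 7.65e-07), Igtp at -0.63 ± 0.14 (adjusted p = 0.000356) and Irgm1 at -0.32 ± 0.13 (adjusted p = 0.0494). Gbp3 differed by -0.22 (-0.47 to 0.03, adjusted p = 0.145) and Irgm2 by -0.15 (-0.37 to 0.07, adjusted p = 0.281). The samples of both cell types did not overlap for the 6 called genes, and they did for the other 2. Of the called genes, Irgm1 and Gbp5 depended on single libraries. Irgm1 lost its call in 11 of the 17 settings that left out 1 sample, with values from -0.36 to -0.25, and with RLE size factors, and Gbp5 in 6 of 17, with values from 0.28 to 0.43.

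Whether a medium acted differently in the 2 cell types was tested by the interaction, the log2 fold change in cDC1s minus that in cDC2s. For RIPK3 against WT, 1 of 8 genes was called, against 1.14% of all genes. It was Irgm2, at 0.74 ± 0.18 (adjusted p = 0.0312), since it was lowered less in cDC1s than in cDC2s. The call was lost when any 1 of 6 samples was left out: cDC1 WT replicate 1 (0.75) or 2 (0.70), cDC1 RIPK3 replicate 1 (0.72) or 3 (0.63), or cDC2 RIPK3 replicate 1 (0.83) or 2 (0.66). Irgm1 at 0.53 (0.09 to 0.97, adjusted p = 0.411) and Igtp at 0.53 (0.04 to 1.01, adjusted p = 0.513) had estimates on the same side, and Irgm1 passed with the replicate block, at 0.50, where the block called 2.35% of all genes, and without a filter, at 0.55. The GBPs ran from -0.48 (Gbp5) to 0.18 (Gbp9).

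For BimS against WT, 0 of 8 genes were called by edgeR, against 0.87% of all genes, and 3 had an unadjusted p under 0.05. These were Irgm2 at 0.49 (0.16 to 0.82), Irgm1 at 0.41 (0.01 to 0.80) and Gbp9 at -0.32 (-0.63 to -0.01). DESeq2 called 0 and limma 0 on either scale, and the replicate block called 1, Irgm2, at 0.49, against 2.32% of all genes. For RIPK3 against BimS, edgeR, DESeq2 and limma each called 0 of 8, against 0.0314% of all genes by edgeR, and 2 had an unadjusted p under 0.05, Gbp9 at 0.50 (0.15 to 0.85) and Gbp3 at -0.46 (-0.88 to -0.04).

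**Figure D4:**
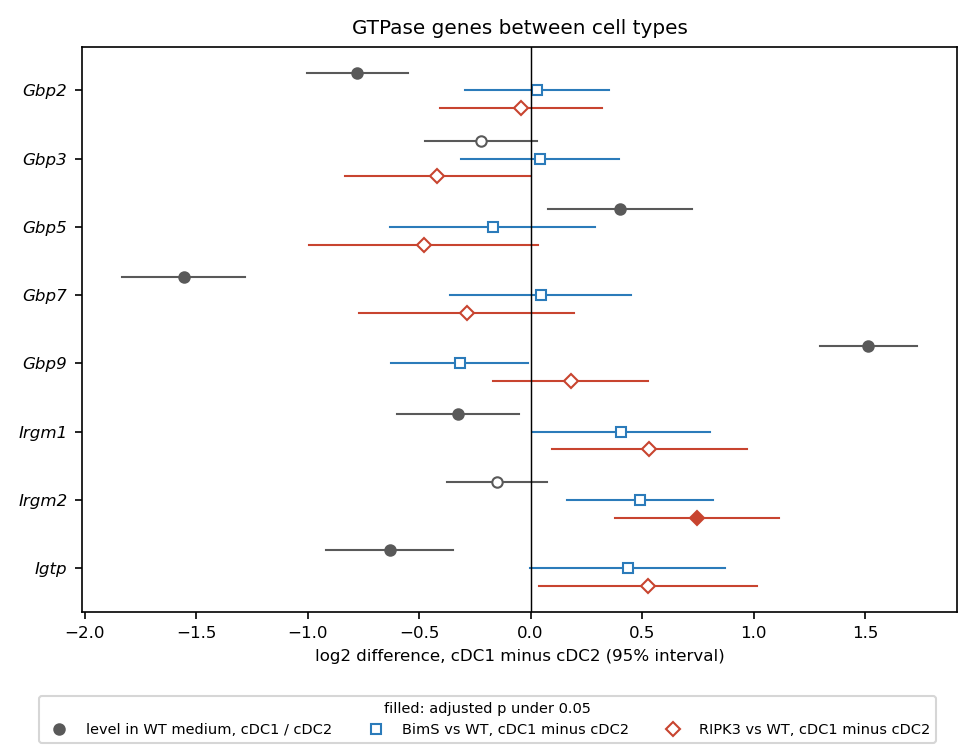
Log2 differences between cDC1s and cDC2s for the 8 GTPase genes, with 95% intervals, as the level with WT medium (grey) and as the difference of the responses to BimS (blue) and RIPK3 medium (red), filled where adjusted p was under 0.05. Gbp9 at 1.52 and Gbp7 at -1.56 stood at opposite ends of the level difference, and Irgm2 at 0.74 was the 1 filled symbol among the responses.

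Within a cell type the 8 genes varied together over the samples. After centring log2 CPM in each cell type, the correlation over 17 samples was between 0.897 and 0.961 among Gbp2, Gbp3, Gbp5 and Gbp7, and 0.930 to 0.981 among Irgm1, Irgm2 and Igtp. The lowest values were those of Igtp with Gbp9 (0.488) and with Gbp3 (0.529). Each gene correlated with the mean of the other 7 at 0.767 (Gbp9) to 0.956 (Gbp7). These values are descriptions, since the samples share 3 media and the genes share libraries and depth. Of 7776 other genes with a mean of at least 3 log2 CPM, the 5 whose profile was most like the mean of the 8 were Slfn5 (0.985), Ifit2 (0.982), Cbfa2t3 (0.960), Slfn8 (0.957) and Sema4a (0.954).

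Of the other GBP genes, only Gbp4 and Gbp8 reached 1 CPM in any group, whose annotated spans overlap that of Gbp9 on the same strand. Gbp4 was at 30.5, 30.1 and 25.97 CPM on average in cDC1s with WT, BimS and RIPK3 medium and at 17.0, 22.2 and 11.4 CPM in cDC2s. It fell with RIPK3 medium in cDC2s, by 0.58 against WT (adjusted p = 0.0483) and by 0.96 against BimS (adjusted p = 0.0154), and its interaction for RIPK3 against WT was 0.33 (-0.22 to 0.88, adjusted p = 0.817). Gbp8 was at 5.85, 6.45 and 5.48 CPM in cDC1s and at 12.7, 13.2 and 9.60 CPM in cDC2s, and it passed no comparison of media. Gbp2b, Gbp6, Gbp10 and Gbp11 averaged at most 0.115 CPM in every group.

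Among other IRG and related genes, 10 of 13 tested were lower with RIPK3 than with WT medium in cDC1s and 8 of 14 in cDC2s, against 8.19% and 3.28% of all genes. With BimS medium 5 of 13 and 5 of 14 were lower, against 5.89% and 3.21%, and none was higher in any comparison of media. The medians with RIPK3 medium were -1.17 in cDC1s and -1.46 in cDC2s. Tgtp2, an effector IRG also known as Irgb6, was at 8.28, 5.58 and 3.71 CPM in cDC1s with WT, BimS and RIPK3 medium and at 12.5, 6.22 and 4.03 CPM in cDC2s, and it fell with both media in both cell types. The gene model Gm12250, a name used for the effector Irgb10, is annotated in GENCODE M39 as a transcribed processed pseudogene, and 100% of its exon bases lie in another model of the same name, so its reads cannot be assigned to the effector gene with certainty. It fell with RIPK3 medium by 1.53 in cDC1s (adjusted p = 0.0101) and by 2.48 in cDC2s (adjusted p = 3.71e-07). Iigp1, the effector Irga6, averaged 0.328 to 1.45 CPM and fell in cDC2s with RIPK3 medium (-2.10, adjusted p = 0.00409), with an interaction of 1.20 (-0.10 to 2.50, adjusted p = 0.637).

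The gene models 9930111J21Rik2 and 9930111J21Rik1 fell with RIPK3 medium by 2.10 and 1.98 in cDC1s and by 2.20 and 3.19 in cDC2s, Gm5431 by 2.36 and 3.07, and Gm12185 by 1.88 and 3.10. The very large GTPase genes Gvin1 and Gvin2 fell in cDC1s with RIPK3 medium by 0.66 and 0.80, Gvin3 by 1.14, and Gvin2 also in cDC2s, by 1.26. Tgtp1 and Tgtp2, Gvin1 and Gvin2, and both 9930111J21Rik models share most of their read-length words, so how their reads were split is uncertain. Irgq, a distant relative at 24.8 to 41.3 CPM, passed no comparison of media, with -0.04 in cDC1s and 0.03 in cDC2s for RIPK3 against WT.

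Upstream of these genes, 4 of the 10 listed interferon ligand genes could be analysed. Ifnb1, Ifna2, Ifnl3 and Ifnk averaged at most 0.138 CPM in every group, and Ifnb1 and Ifna2, which had enough reads for a test in cDC1s, were not called there. Of 9 receptor and JAK-STAT genes, 3 were lower with BimS and 1 with RIPK3 medium in cDC1s, and 1 with each in cDC2s, always with Stat2 among them, against 5.89%, 8.19%, 3.21% and 3.28% of all genes. Stat2, part of the complex that binds ISREs, averaged 309, 247 and 200 CPM in cDC1s with WT, BimS and RIPK3 medium and 239, 154 and 127 CPM in cDC2s. It fell with RIPK3 medium by 0.63 in cDC1s (adjusted p = 6.06e-07) and by 0.92 in cDC2s (adjusted p = 3.87e-06). The interferon-γ receptor gene Ifngr1 fell with BimS medium in cDC1s by 0.22 (adjusted p = 0.0066) and was at 0.04 with RIPK3 medium (-0.07 to 0.16), and Ifngr2 was at -0.13 with RIPK3 medium in cDC1s (-0.24 to -0.02, adjusted p = 0.0949). Jak2 and Stat3 passed no comparison of media.

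Among transcription factors, Irf1 moved against the GTPase genes. It averaged 181, 253 and 246 CPM in cDC1s with WT, BimS and RIPK3 medium and 75.3, 108 and 102 CPM in cDC2s. It rose with BimS medium by 0.48 ± 0.05 in cDC1s (adjusted p = 4.98e-09) and 0.52 ± 0.08 in cDC2s (adjusted p = 0.00024), and with RIPK3 medium by 0.44 in each (adjusted p = 2.83e-08 and 0.00284). Irf9, the DNA-binding part of the ISRE complex, fell with RIPK3 medium by 0.45 in cDC1s and 0.82 in cDC2s. Irf8, which cDC1s depend on, averaged 310, 185 and 177 CPM in cDC1s and fell there by 0.75 with BimS and 0.82 with RIPK3 medium. Ciita, the switch of MHC class II genes, rose with BimS medium in cDC1s by 0.28 and was at -0.06 with RIPK3 medium. Irf2 fell in cDC1s with RIPK3 medium by 0.15. Of the 8 factors, 5 were lower and 1 higher with RIPK3 medium in cDC1s, against 8.19% and 8.34% of all genes, the higher count being near its share. In cDC2s 3 of 7 were lower and 1 higher, against 3.28% and 3.93%. With BimS medium 2 were lower and 2 higher in cDC1s, against 5.89% and 7.31%. In cDC2s 3 were lower and 1 higher with BimS medium, against 3.21% and 3.8%.

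**Figure D5:**
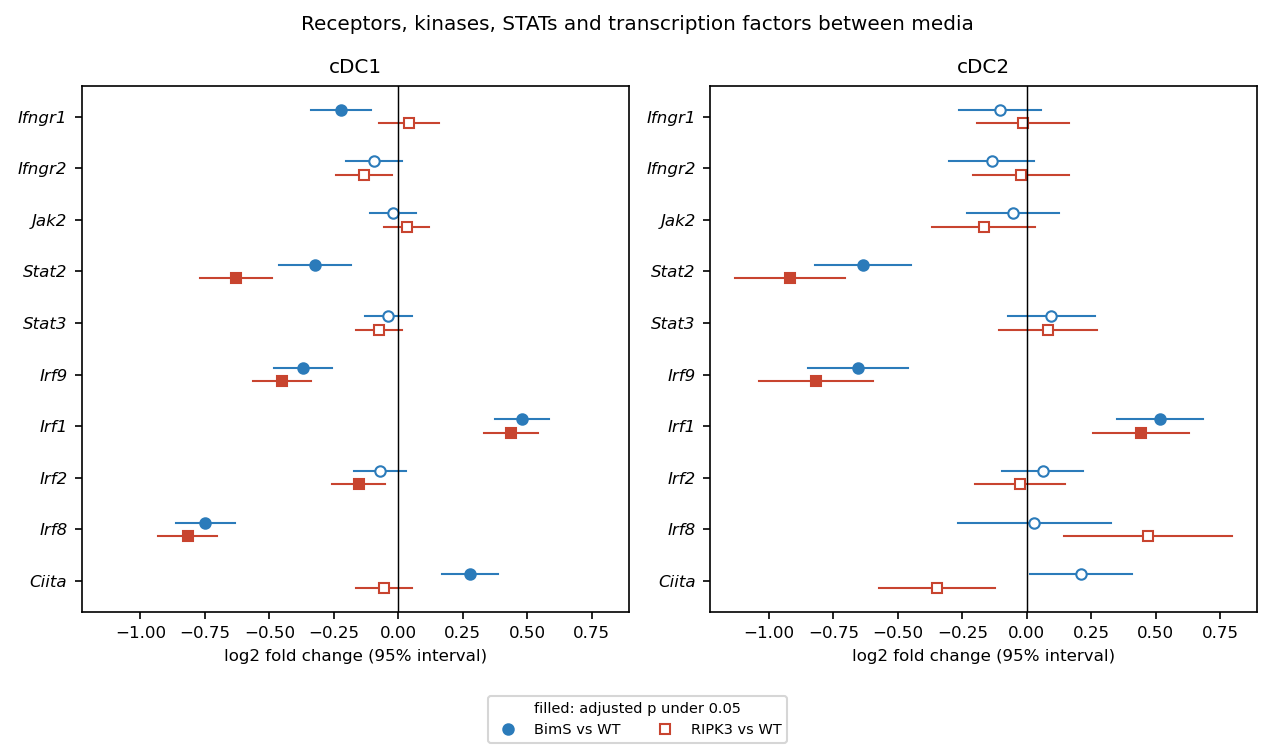
Log2 fold changes with 95% intervals of receptor, kinase, STAT and transcription factor genes for BimS (blue) and RIPK3 medium (red) against WT medium, filled where adjusted p was under 0.05. Irf1 lay between 0.44 and 0.52 in all 4 comparisons, and Stat2 and Irf9 lay below 0 in all 4.

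Most targets mainly known from type I interferon were called lower with RIPK3 medium, and so were 4 of 12 targets of interferon-γ in each cell type. In cDC1s 5.89% of all genes were called lower and 7.31% higher with BimS medium and 8.19% lower and 8.34% higher with RIPK3 medium, and in cDC2s 3.21%, 3.8%, 3.28% and 3.93%. Of 15 type I targets, 12 were lower and 1 was higher with RIPK3 medium in cDC1s, with a median of -1.20, and 13 were lower in cDC2s, with a median of -1.73. With BimS medium 4 were lower and 1 higher in cDC1s and 13 were lower in cDC2s. Ifit2, an RNA-binding antiviral protein, averaged 25.7, 19.2 and 7.40 CPM in cDC1s with WT, BimS and RIPK3 medium and 43.4, 23.0 and 8.44 CPM in cDC2s. Oasl1 averaged 367, 586 and 517 CPM in cDC1s and rose there by 0.68 with BimS (adjusted p = 0.0107) and by 0.49 with RIPK3 medium (adjusted p = 0.037). In cDC2s Oasl1 was at -0.31 (-0.57 to -0.05) and Isg15 at -0.11 (-0.41 to 0.19) with RIPK3 medium, and neither was called. Of 12 interferon-γ targets other than the GTPases, 4 were lower and 1 was higher with RIPK3 medium in cDC1s, and 4 were lower in cDC2s, with medians of -0.16 and -0.28, where the share called higher in cDC1s was near that of all genes. With BimS medium 3 of the 12 were higher and 1 was lower in cDC1s, and 4 were lower in cDC2s. Cd274, which encodes PD-L1, rose in cDC1s by 0.36 with RIPK3 medium (adjusted p = 1.05e-06), Icam1 was at -0.02 there (-0.12 to 0.08), and the peptide transporter gene Tap1 fell by 0.19 in cDC1s and 0.57 in cDC2s.

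Of 6 feedback inhibitors, 2 were higher and 1 lower with RIPK3 medium in cDC1s, against 8.34% and 8.19% of all genes, and 2 were lower in cDC2s, against 3.28%. With BimS medium 1 was higher in cDC1s, against 7.31%, and 3 were lower in cDC2s, against 3.21%. Usp18, which restrains type I interferon signalling, averaged 27.5, 15.98 and 10.6 CPM in cDC1s with WT, BimS and RIPK3 medium and 24.6, 12.8 and 6.04 CPM in cDC2s. It fell with RIPK3 medium by 1.39 in cDC1s (adjusted p = 0.00784) and by 2.03 in cDC2s (adjusted p = 1.8e-06). Socs3 rose with RIPK3 medium in cDC1s by 0.26, while the phosphatase gene Ptpn6 fell in cDC2s by 0.92 with BimS and 0.87 with RIPK3 medium. Of 10 genes of ATG8 conjugation, the lipidation machinery that targets GBPs and IRGs to vacuoles, 2 were higher with RIPK3 medium in cDC1s, Gabarapl1 at 0.42 among them, and 1 in cDC2s, Map1lc3b at 0.40, against 8.34% and 3.93% of all genes called higher. Of 9 inflammasome genes linked to GBPs, 1 was higher and 1 lower with BimS medium in cDC1s, 1 was lower with BimS medium in cDC2s, and 1 was lower with RIPK3 medium in cDC1s. A single gene of 9 is near the shares of all genes in cDC1s, 7.31% higher and 5.89% lower with BimS and 8.19% lower with RIPK3 medium. With BimS medium Casp1 rose in cDC1s by 0.33, and Pycard fell by 0.58 in cDC1s and by 1.11 in cDC2s. The gene lower with RIPK3 medium was Casp4, the sensor of cytosolic lipopolysaccharide, which fell in cDC1s by 0.41 against WT (adjusted p = 3.95e-05) and by 0.45 against BimS medium (adjusted p = 0.000118) and was at -0.31 against WT in cDC2s (-0.59 to -0.03, adjusted p = 0.216). Il1b, Casp8, Aim2 and Nlrp3 passed neither comparison with WT in either cell type.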

How the data were processed

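Polyadenylated RNA of 17 samples was sequenced by the authors in pairs of 54-base reads. Per the labels and the study's methods, they trimmed reads with SeqPurge, aligned them with STAR 2.7.10a to GRCm39 with Ensembl models and counted with gensum, and the deposited table holds raw counts per gene without normalization. A deposited table of normalized log2 values was not used. Of the lines, 148 without a gene identifier (0.0258% to 0.0366% of counts) were left out, 31091 genes remained, and 30854 had a symbol in GENCODE M39. Whether the counting used strand is not given in the sources used here.

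Groups came from the labels. Genes detected (a count above 0) in no fewer than 50% of the samples of a fit were tested with the quasi-likelihood test of edgeR 4.0.16 (R 4.3.3) with TMM factors and robust dispersions, and genes with a Benjamini-Hochberg adjusted p under 0.05 over all tested genes were called. Media were compared within each cell type in separate fits. Cell types and interactions were tested in 1 fit of 17 samples. The authors' own model, limma on log2(count + 1), was kept as an alternative, beside DESeq2 1.42.0, RLE factors, other filters, limma 3.58.1 on log2 CPM, all 17 samples in 1 fit, the replicate number as a block, and leaving out each sample. The test was checked on simulated counts. Levels are CPM with TMM over all samples, and per kb of union exon length where genes are compared.

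Same-numbered samples pair by deviation from the group means. In cDC1s 9 of 9 pairs with the same number had a correlation over 0.1 (median 0.324) and 1 of 18 with different numbers, and in cDC2s 7 of 7 (median 0.427) and 3 of 14, so blocked values stand beside results on the 8 genes whose call they change, and the other lists are given without the block. Depth was 16095159 to 21645289 gene counts per sample, and the lowest count of any of the 8 genes was 44. Motifs were searched with Python in RefSeq promoter entries. The 8 genes and all lists were chosen with earlier results of these data known. Named beyond them were relatives that reach 1 CPM in a group, for each other list at most 4 genes of highest CPM in WT medium plus Irf1, Ifngr1, Ifngr2 and Casp4, and the 5 genes most alike in profile. Usp18, Casp1 and Pycard lie outside this rule and were named after their values were seen. List genes whose symbol was not matched in the count table, Ifng and 5 other interferon ligand genes among them, were not analysed here, and 1 further gene of these lists is not reported here.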

Additional observations from a re-analysis of the deposited data

Results flagged for a closer look

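Irgm2 was called as differing between the cell types in its response to RIPK3 against WT medium, with an interaction of 0.74 (cDC1 minus cDC2, log2 scale, SE 0.18, adjusted p = 0.0312 by edgeR). The call was lost when any 1 of 6 of the 17 samples was left out, with an adjusted p of up to 0.281. Within the cell types it fell with RIPK3 medium by 0.59 in cDC1s and by 1.34 in cDC2s, and every RIPK3 sample lay below every WT sample. Groups of 2 or 3 samples were not tested for a sample far from the others.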

How the results depend on the processing

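All 8 genes were called lower with RIPK3 than with WT medium in both cell types under DESeq2, RLE size factors, both other filters, both limma models, the replicate block and the fit of all 17 samples. In cDC1s with BimS against WT medium the main count of 2 became 3 with DESeq2, filterByExpr and both limma models, 4 without a filter and 5 with the replicate block, and 1 to 4 when each sample was left out. Over all genes 2576 were called in the main fit, 2333 with DESeq2 and 2665 with filterByExpr. Limma called 1510 on log2(count + 1) and 2424 on log2 CPM, and 2760 were called without a filter and 3486 with the block. In cDC2s with BimS against WT medium the count of 3 became 5 with the block, and stayed at 3 to 4 when samples were left out. For RIPK3 against BimS medium in cDC2s the count of 3 became 6 with DESeq2, 7 without a filter, 7 with limma on log2(count + 1), 7 with the block and 5 in the fit of all 17 samples. It was 0 to 6 when a WT or BimS sample was left out, and Gbp7 lost its call with filterByExpr. Calls over all genes moved too, from 73 in the main fit to 141, 300, 148, 2755 and 244 in those 5 settings, in the same order. For the same media in cDC1s the count of 5 became 6 with DESeq2 and with limma on log2(count + 1), 7 without a filter and with the block and 4 in the fit of all 17 samples, and 4 to 6 when samples were left out. Over all genes 810 were called in the main fit, against 780, 403, 1047, 1730 and 269 in those settings, in the same order. The interaction for BimS against WT rose from 0 to 1 with the block, and that for RIPK3 against WT from 1 to 2 without a filter and with the block, and ran from 0 to 1 without single samples. No call was lost with the block. For cDC1 against cDC2 with WT medium the count of 6 ran from 4 to 6, and Irgm1 lost its call with RLE factors and both limma models.

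Limma on log2(count + 1), which is not scaled for depth, shifted the median of all genes to -0.12 in cDC1s and -0.17 in cDC2s for RIPK3 against WT and to 0.16 for cDC1 against cDC2. The share of called genes that were higher with RIPK3 medium was then 27.9% against 50.5% in cDC1s and 22.8% against 54.5% in cDC2s. In that model Irgm2 in cDC1 against cDC2 turned to 0.0099 and the Gbp2 interaction for RIPK3 against WT to 0.039. Other changes of direction came from leaving out a sample, in values near 0 that were not called. For BimS against WT they ran from -0.18 to 0.0047 (Gbp2, cDC1), -0.13 to 0.058 (Gbp3, cDC1), -0.16 to 0.025 (Gbp3, cDC2) and -0.0070 to 0.25 (Gbp9, cDC2), and as interactions from -0.072 to 0.12 (Gbp2), -0.075 to 0.13 (Gbp3) and -0.068 to 0.18 (Gbp7). The Gbp2 interaction for RIPK3 against WT ran from -0.23 to 0.16, and those for RIPK3 against BimS from -0.26 to 0.14 (Gbp2), -0.081 to 0.36 (Irgm1) and -0.11 to 0.31 (Igtp). The cause was not tested in any of these cases. The group of cDC2s with RIPK3 medium has 2 samples, which limits all results that rest on it.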
